A study of Homo sapiens with 4 samples.

Results

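The genes described here are the nuclear genes for the subunits and assembly factors of respiratory complex I, in HEK293T cells with and without a MORC2 knockout. They were chosen by name, as every protein-coding gene whose RefSeq symbol begins with NDUF (46 genes) together with 9 named assembly factors, ACAD9, ECSIT, FOXRED1, NUBPL, TIMMDC1, TMEM126A, TMEM126B, TMEM186 and COA1. This gave 55 of the 28775 genes counted. The choice used no measured value, but it was made with NDUFAF8 already known to be lower in the knockout. By the structure of the complex, 7 members are core subunits, 9 are accessory subunits of the peripheral arm, 9 of the proximal membrane arm and 12 of the distal membrane arm, 17 are assembly factors and 1 is the read-through gene NDUFC2-KCTD14. NDUFA4 now carries the symbol COXFA4, as a subunit of complex IV, and is not among them.

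HEK293T is a line of transformed cells from human embryonic kidney. Polyadenylated RNA was sequenced from 4 cultures, 2 labelled MORC2 KO and 2 labelled WT, to ask how the loss of MORC2, a chromatin-compacting ATPase, changes gene expression. The MORC2 KO cultures had been electroporated with Cas9 protein and a guide RNA, a different one in each (sgRNA 1 in replicate 1 and sgRNA 2 in replicate 2), and were kept as bulk populations rather than as clones, so that uncut cells may remain in them. The labels give the WT cultures no guide and neither group any other treatment. Whether the WT cultures were electroporated is not given in the sources used here, so the knockout and its delivery cannot be told apart.

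Complex I takes electrons from NADH, passes them along a chain of iron-sulfur clusters to ubiquinone and uses the energy to pump protons out of the mitochondrial matrix. Its peripheral arm in the matrix carries the flavin and the clusters, and its membrane arm carries the pumps, most of which are made inside the mitochondrion from its own DNA. The nuclear subunits are imported, and assembly factors, which are not part of the finished enzyme, join them into modules, attach their cofactors and bring the modules together.

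NDUFAF8, the member on which the comparison below turns, encodes a small protein that binds and stabilises NDUFAF5, the enzyme that hydroxylates an arginine of the core subunit NDUFS7. Its coding sequence is shown because it carries the twin cysteine pairs (cysteine, 9 other residues, cysteine; CX9C) of proteins that fold by disulfide bonds, a feature that a few subunits have too. The sequence is that of GENCODE 29, has 74 codons without the stop and lies at chr17:81239364-81241013 of GRCh38 on the plus strand, with capitals marking the paired cysteine codons, the first of them codon 25 and the last codon 61.
NDUFAF8: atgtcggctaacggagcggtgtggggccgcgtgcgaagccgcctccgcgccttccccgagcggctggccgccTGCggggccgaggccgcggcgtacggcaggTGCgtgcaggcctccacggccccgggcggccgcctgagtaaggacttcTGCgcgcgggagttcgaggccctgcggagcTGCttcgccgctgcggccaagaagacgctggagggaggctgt

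Of the 55 members, 5 had at least 2 pairs of cysteine codons that lie 10 codons apart. They were NDUFAF8, NDUFB7 in the distal membrane arm, NDUFS5 and NDUFA8 in the proximal membrane arm, and NDUFS8, a core subunit whose cysteines hold iron-sulfur clusters. The segments from the first to the last paired codon of the 3 accessory subunits are given for comparison with NDUFAF8, with the same capitals. On GRCh38 their coding sequences span chr19:14566136-14572000 on the minus strand (NDUFB7, codons 59 to 90), chr1:39028725-39034493 on the plus strand (NDUFS5, codons 33 to 66) and chr9:122144244-122159677 on the minus strand (NDUFA8, codons 36 to 110).
NDUFB7: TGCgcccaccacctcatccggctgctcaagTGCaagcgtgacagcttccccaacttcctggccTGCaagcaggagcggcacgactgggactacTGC
NDUFS5: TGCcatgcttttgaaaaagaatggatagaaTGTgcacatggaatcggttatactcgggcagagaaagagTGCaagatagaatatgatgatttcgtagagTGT
NDUFA8: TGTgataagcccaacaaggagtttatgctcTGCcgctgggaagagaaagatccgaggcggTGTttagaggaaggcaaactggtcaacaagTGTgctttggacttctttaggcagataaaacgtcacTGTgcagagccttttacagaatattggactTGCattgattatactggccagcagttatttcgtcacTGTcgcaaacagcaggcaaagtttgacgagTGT

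NDUFAF8, NDUFB7 and NDUFS5 have 2 such pairs each, and NDUFA8 has 5. The log2 fold changes of these 5 members, described with the others below, were -0.40 for NDUFAF8, -0.30 for NDUFB7, -0.18 for NDUFS5, -0.13 for NDUFA8 and -0.08 for NDUFS8. All 5 lay below 0, as did 47 of the 54 members tested, so the direction did not set them apart.

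The 250 bases before the start of NDUFAF8 are shown because it was the member called. They come from RefSeq, at chr17:81239061-81239310 of GRCh38.p14 on the plus strand, and the capitals mark the letters CCAAT and, on the other strand, ATTGG.
NDUFAF8 upstream: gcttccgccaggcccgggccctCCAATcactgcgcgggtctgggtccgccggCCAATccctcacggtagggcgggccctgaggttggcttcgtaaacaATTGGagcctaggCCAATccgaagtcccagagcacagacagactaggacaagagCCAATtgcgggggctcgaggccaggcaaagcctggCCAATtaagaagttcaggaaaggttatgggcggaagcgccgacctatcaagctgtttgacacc

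These letters occur 6 times. The letters were also counted in the first 250 bases of each of 35116 RefSeq windows of 300 bases around a gene start. Of these windows, 37 (0.105%) held as many there. Among the 62 windows of members only 2 did, both of them overlapping windows of NDUFAF8. The median over the member windows was 0. These letters were looked for after the window had been seen, so the count is a description of the window and not a test.

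The MORC2 transcript itself was at 51.2 and 55.0 CPM (counts scaled to library size) in the MORC2 KO libraries and at 86.2 and 87.7 in the WT libraries. The groups did not overlap, and the knockout level was 61.1% of WT (log2 fold change -0.71 ± 0.06 SE). The adjusted p was 1.37e-04, from the quasi-likelihood F-test of edgeR, adjusted over 16675 genes by Benjamini-Hochberg. This is the level of RNA and does not measure MORC2 protein, on which the study checked the knockout by western blot. The libraries held between 53970043 and 64312514 counted read pairs, and the members between 13.04 and 178 CPM on average in WT, so that the spread between cultures and not the counting limits the members' values. With 2 cultures per group, the p-values measure the spread between these 4 samples alone. The quasi-likelihood fit estimated that spread for each gene partly from the other tested genes. Within MORC2 KO the spread also includes the change of guide. HEK293T markers were present in all libraries, from LHX1 at 0.507 to 0.969 CPM to VIM at 547 to 585 CPM. Markers of fibroblasts summed to 0 to 0.0752 CPM, with COL1A2 at 0 in all 4 libraries, and those of blood cells to 0.286 to 0.413 CPM, nearly all of it CD34. MORC2 KO replicate 2 stood apart from the other 3 libraries, being the lowest for 33.9% and the highest for 35.7% of all tested genes. In bulk RNA, fewer cells that express a gene and less RNA of it per cell cannot be told apart.

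Among the complex I genes, NDUFAF8 fell in MORC2 KO and no member rose. The other tested members differed by less than the test could call, but most of them lay on the lower side. Of 55 members, 54 passed the filter on low counts. Of these, 1 was called lower, where the background over all tested genes was 0.03% (5 of 16675 genes). This was NDUFAF8, whose fall was known when the members were chosen, so the call does not test the set. No member was called higher, where the background was 0.588% (98 genes). At an unadjusted p under 0.05, 20 members (37.0%) were lower, against 6.17% of all tested genes, and 0 were higher, against 8.14%. DESeq2 called 1 member lower and 0 higher as well, where 17 genes (0.102%) of all were called lower. With DESeq2, 16 of the 54 members were lower at an unadjusted p under 0.05, against 4.83% of all tested genes. Both MORC2 KO libraries lay below both WT libraries in 35 members (64.8%), against 23.4% of all tested genes, and above both in 3, against 24.1%. Among short genes of like abundance, described below, the share with both below was 57.7%. The median log2 fold change of the 54 members was -0.13, against 0.01 for all tested genes. Below 0 lay 47 of the 54 (87.0%), against 48.5% of all tested genes.

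**Figure D1:**
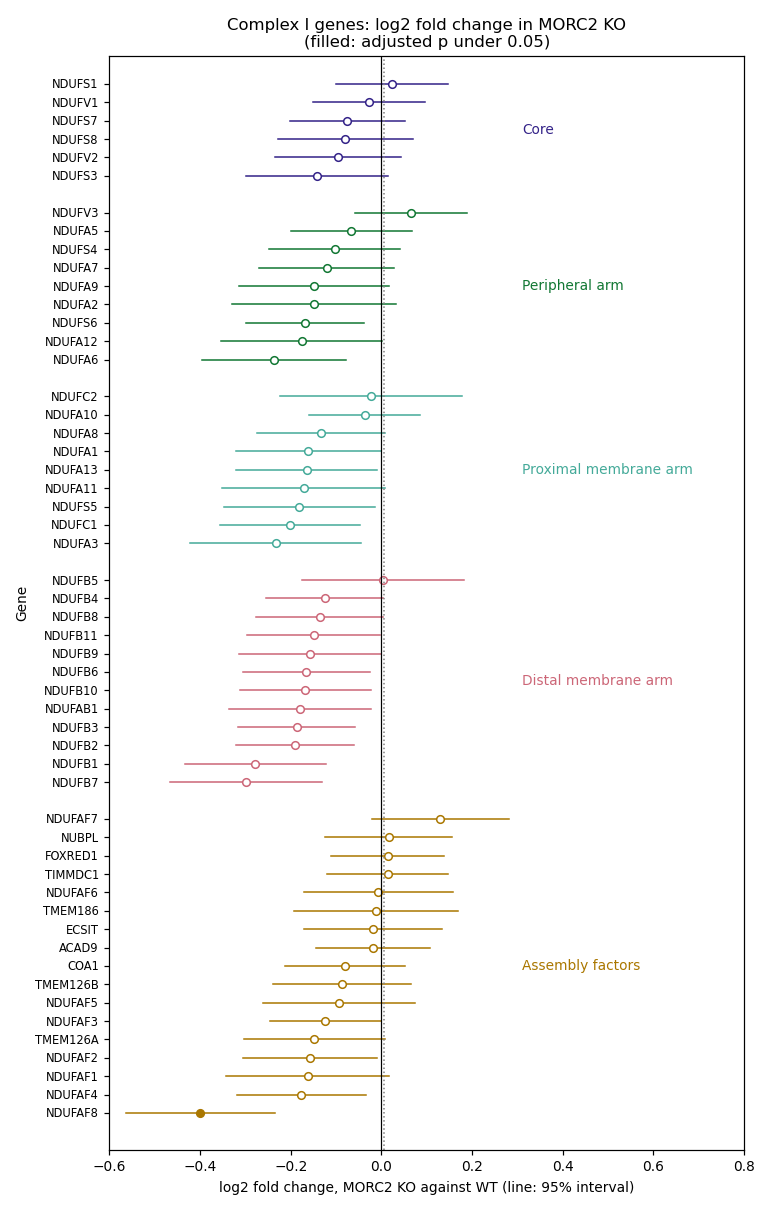
Log2 fold change (horizontal axis, MORC2 KO against WT) of 53 of the 54 tested members, grouped by place in the complex, with lines for 95% intervals, a filled point for an adjusted p under 0.05 and a dotted line at the median of all tested genes. NDUFAF8 at -0.40 is the filled point, and 46 of the 53 points lie below 0.

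The removed member was NDUFC2-KCTD14, a read-through of NDUFC2 into its neighbour, with 7 and 4 counts in MORC2 KO and 7 and 8 in WT. It shares 20.6% of its exonic bases with NDUFC2 and 79.4% with KCTD14, and read pairs in shared bases were not counted, so these counts do not measure it.

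NDUFAF8 had 2333 and 2276 counts in the MORC2 KO libraries and 3044 and 2431 in the WT libraries. After scaling for library size this was 39.0 and 34.4 CPM in MORC2 KO against 51.2 and 45.7 CPM in WT. Both knockout libraries lay below both WT libraries, and the WT libraries differed from each other by nearly as much as the nearest knockout and WT libraries did. The mean fell from 48.4 ± 3.88 CPM (SD, n = 2) to 36.7 ± 3.23 CPM (SD, n = 2), which was 75.9% of WT. The log2 fold change was -0.40 ± 0.08 (SE), with a 95% interval from -0.56 to -0.23 and an adjusted p of 0.0363 in edgeR's quasi-likelihood test. In the authors' annotation of T2T-CHM13v2.0 the gene lies at chr17:82148434-82150433 on the plus strand, has 3 exons with 1333 exonic bases and shares none of them with another gene.

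The fall was smallest without MORC2 KO replicate 2 (-0.31), with the call kept, and the call was lost only without WT replicate 1. Without that library the log2 fold change was -0.32 with an adjusted p of 0.155 in edgeR, and without any other library it stayed between -0.51 and -0.31 with the call kept. Under the other scalings, offsets, filters and tests and with the replicate block the value lay between -0.41 and -0.36. The adjusted p lay between 2.21e-06 (edgeR without the filter on low counts) and 0.0492 (edgeR with library size alone). With the replicate numbers crossed, an edgeR fit chosen after seeing the data, it was 1.14e-09, but 10.3% of all tested genes were called there.

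NDUFAF5, the partner that NDUFAF8 stabilises, was at 23.3 and 20.7 CPM in MORC2 KO and 24.1 and 22.8 CPM in WT. One knockout library lay between the WT libraries, and the log2 fold change of -0.09 (95% interval -0.26 to 0.07, adjusted p = 0.592) was not called. NDUFS7, the core subunit that NDUFAF5 modifies, was at 68.0 and 64.3 CPM in MORC2 KO and 69.7 ± 0.448 CPM (SD, n = 2) in WT. Its log2 fold change was -0.08 (95% interval -0.20 to 0.05). Neither gene was called, and both intervals end above the value of NDUFAF8.

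The 17 assembly factors had log2 fold changes from -0.40 (NDUFAF8) to 0.13 (NDUFAF7), with a median of -0.08. Of these, 13 (76.5%) lay below 0, against 48.5% of all tested genes, and 4 lay above. The groups overlapped in 9 of the 17, and in 8755 of the 16675 tested genes. An unadjusted p under 0.05 and a lower level were found in 4 (23.5%), against 6.17% of all tested genes. NDUFAF4 and NDUFAF3 are partners that build the module in which ubiquinone is reduced. NDUFAF4 was at 37.2 and 33.8 CPM in MORC2 KO against 40.3 and 39.9 CPM in WT (log2 fold change -0.18), and NDUFAF3 at 94.6 and 92.1 against 101 and 102 CPM (-0.12). For both genes each knockout library lay below each WT library, though NDUFAF3 shares 21.5% of its exonic bases with DALRD3 on the other strand. NDUFAF2, which holds the place of the late subunit NDUFA12 during assembly, was at 30.6 and 27.8 CPM in MORC2 KO against 33.0 and 32.1 CPM in WT (-0.16). None of the 3 passed the adjustment, with adjusted p from 0.270 to 0.341.

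NDUFAF7, an arginine methyltransferase, had the highest log2 fold change of all members. It was at 25.3 and 24.7 CPM in MORC2 KO and 22.1 and 23.7 CPM in WT, with both knockout libraries above both WT libraries. The log2 fold change of 0.13 (95% interval -0.02 to 0.28, adjusted p = 0.412) was not called. The remaining assembly factors lay close to the WT level or slightly below. The factors that assemble the inner part of the membrane arm (NDUFAF1, ECSIT, ACAD9, TMEM126B, TMEM186, COA1 and TIMMDC1) had log2 fold changes from -0.16 for NDUFAF1 to 0.01 for TIMMDC1, which shares 33.5% of its exonic bases with CD80. NUBPL, which delivers iron-sulfur clusters, and FOXRED1 were at 0.02 and 0.01, TMEM126A was at -0.15, and NDUFAF6 was at -0.01.

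The 7 nuclear core subunits, which hold the flavin and the iron-sulfur clusters, lay near the WT level, with a median log2 fold change of -0.08, none called and none with an unadjusted p under 0.05. NDUFV1, which binds NADH and the flavin, was at 132 and 138 CPM in MORC2 KO and 137 and 138 CPM in WT (-0.03). NDUFV2, the other cluster protein of the NADH-oxidising tip, was at 50.4 and 46.0 against 52.4 and 50.6 CPM (-0.10). NDUFS1, the largest subunit, was at 177 and 173 against 170 and 174 CPM (0.02). These 3 subunits of the tip of the arm differed little, with overlapping groups in NDUFV1 and NDUFS1.

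The other core subunits line the way to ubiquinone. NDUFS3, which carries no cluster, had the lowest log2 fold change of the core, at 86.9 and 74.3 CPM in MORC2 KO against 87.8 and 90.1 CPM in WT (-0.14, 95% interval -0.30 to 0.01). NDUFS8 was at 94.98 and 83.4 against 92.3 and 96.2 CPM (-0.08), with overlapping groups. In NDUFS3 and NDUFS8 MORC2 KO replicate 2 was the lowest of the 4 libraries.

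In the peripheral arm, 8 of the 9 accessory subunits (88.9%) lay below 0, against 48.5% of all tested genes. The median was -0.15 and none was called. Of the 9, 2 (22.2%) had an unadjusted p under 0.05 and were lower, against 6.17% of all tested genes. NDUFA6, a subunit of the LYR family that binds an acyl carrier protein, was the lowest, at 47.9 and 40.9 CPM in MORC2 KO and 52.0 and 52.8 CPM in WT (log2 fold change -0.24, 84.9% of WT, adjusted p = 0.209). NDUFS6, a zinc-binding subunit added late, was at 61.8 and 58.1 against 68.6 and 66.1 CPM (-0.17, adjusted p = 0.258). In both genes the knockout libraries lay below the WT libraries. NDUFV3, a subunit of the NADH-oxidising tip, was the one accessory subunit of the arm above 0, at 78.9 and 82.0 against 77.4 and 76.4 CPM (0.07, 95% interval -0.06 to 0.19). NDUFS4, NDUFA2, NDUFA5, NDUFA7, NDUFA9 and NDUFA12 lay between -0.18 and -0.07.

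All 9 accessory subunits of the proximal membrane arm lay below 0, against 48.5% of all tested genes. The median was -0.17 and none was called. Of the 9, 5 (55.6%) had an unadjusted p under 0.05 and were lower, against 6.17% of all tested genes. Among short genes of like abundance, described below, 88.7% lay below 0 and 32.7% were lower at that p. NDUFA3, a small membrane subunit, was at 22.8 and 19.8 CPM in MORC2 KO and 26.7 and 23.3 CPM in WT (log2 fold change -0.23, 95% interval -0.42 to -0.04), and shares 15.9% of its exonic bases with TFPT. NDUFC1 was at 44.04 and 39.5 against 50.4 and 45.7 CPM (-0.20). NDUFS5, whose cysteine pairs are shown above and which lies on the face towards the intermembrane space, was at 141 and 118 against 150 and 144 CPM (-0.18). In these 3 genes MORC2 KO replicate 1 lay just below the lower WT library and MORC2 KO replicate 2 further down.

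NDUFA13, also known as GRIM-19, was at 83.2 and 71.7 CPM in MORC2 KO against 88.6 and 85.0 CPM in WT (-0.17). NDUFA1, an X-linked subunit, was at 71.6 and 67.4 against 83.6 and 71.8 CPM (-0.16), so that WT replicate 2 almost met the nearer knockout library. NDUFC2 was the subunit of this arm nearest to WT, at 19.4 and 16.9 against 17.2 and 19.8 CPM (-0.02), but shares 19.8% of its exonic bases with the read-through gene. NDUFA8, NDUFA10 and NDUFA11 had values from -0.17 to -0.04.

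The distal membrane arm held the most members with small p-values. There 9 of 12 (75.0%) had an unadjusted p under 0.05 and were lower, against 6.17% of all tested genes. None was called, and the median was -0.17. The genes of this arm are short, with a median of 683 exonic bases, against 1560 in the core and 2379 in the assembly factors. With offsets on length the medians were -0.11 in this arm, -0.10 in the proximal membrane arm and -0.09 in the peripheral arm. They were -0.04 in the core and -0.08 in the assembly factors. Whether the groups differ beyond length was not tested. NDUFB7, the second member after NDUFAF8 by fold change, was at 47.7 and 40.0 CPM in MORC2 KO and 54.5 and 53.4 CPM in WT. This was 81.3% of WT, with a log2 fold change of -0.30 (95% interval -0.47 to -0.13, adjusted p = 0.138 in edgeR). NDUFB1, the shortest gene of the set with 317 exonic bases, was at 21.1 and 19.6 against 25.04 and 24.3 CPM, which was 82.5% of WT (-0.28, 95% interval -0.43 to -0.12, adjusted p = 0.137). Both genes had their knockout libraries below their WT libraries by more than the WT libraries differed from each other. With the replicate number as a block NDUFB7 was called as well, which raised the count of members lower from 1 to 2. Over all tested genes the count lower rose there from 5 to 42 (0.252%). Without the filter on low counts NDUFB7, NDUFB1 and NDUFA6 were called beside NDUFAF8, where 182 genes (0.801%) of all were called lower.

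NDUFB2 and NDUFB3, small single-span membrane subunits, were at 46.9 and 45.1 against 53.8 and 51.1 CPM (-0.19) and at 47.7 and 46.1 against 54.8 and 52.1 CPM (-0.19). NDUFB2 shares 24.3% of its exonic bases with its antisense gene NDUFB2-AS1. In this pair the knockout libraries lay closer together than the WT libraries did. NDUFAB1, the mitochondrial acyl carrier protein, which also serves fatty acid synthesis, was at 114 and 97.8 against 117 and 122 CPM (-0.18).

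NDUFB10 was at 168 and 149 against 181 and 175 CPM (-0.17), and NDUFB6 at 61.8 and 55.3 against 66.0 and 65.3 CPM (-0.17). NDUFB9, another protein of the LYR family, was at 145 and 125 against 153 and 148 CPM (-0.16). NDUFB11, an X-linked subunit that shares 19.3% of its exonic bases with RBM10, was at 98.0 and 85.8 against 101 and 103 CPM (-0.15). In all 4 genes MORC2 KO replicate 2 was the lowest library and MORC2 KO replicate 1 lay between it and WT. NDUFB8 and NDUFB4 had log2 fold changes of -0.14 and -0.13. NDUFB5 was the exception in this arm, at 46.0 and 37.7 against 41.3 and 42.2 CPM, with a log2 fold change of 0.00 and one knockout library on each side of WT.

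**Figure D2:**
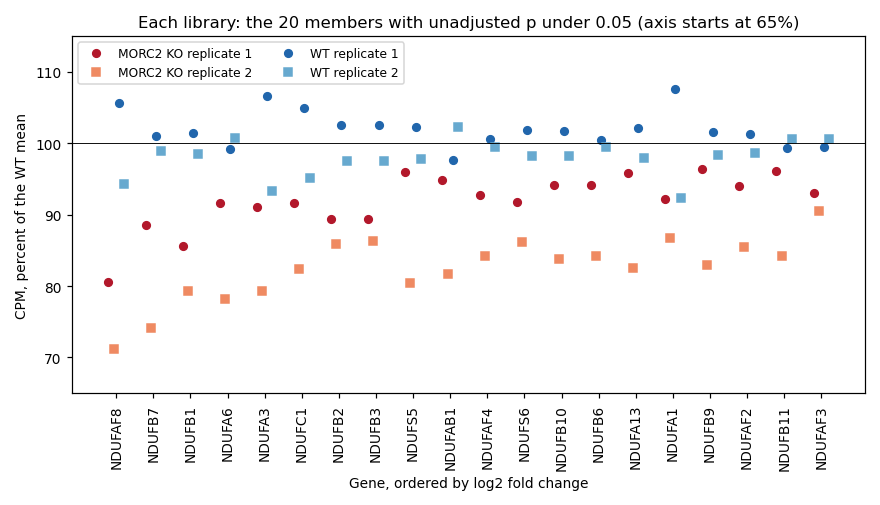
Level in each library (vertical axis, CPM as a percent of the mean of the WT libraries, starting at 65%) of the 20 members with an unadjusted p under 0.05, ordered by log2 fold change. In all 20 both knockout libraries lie below both WT libraries, and MORC2 KO replicate 2 is the lower of the pair.

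The size of these differences depended on 1 library. MORC2 KO replicate 2 was the lowest of the 4 libraries in 46 of the 54 members, against 33.9% of all tested genes. It lay below MORC2 KO replicate 1 in 49 of the 54 members, against 49.2% of all tested genes. MORC2 KO replicate 1 lay below both WT libraries in 37 of the 54 members, against 35.1% of all tested genes. Without MORC2 KO replicate 2 the median of the members was -0.05, with 41 below 0, 7 at an unadjusted p under 0.05 and lower, against 4.48% of all tested genes in that fit, and 1 called, NDUFAF8. Without MORC2 KO replicate 1 the median was -0.21 and 34 members were called lower, but so were 12.4% of all tested genes, the knockout then being that single library. Without WT replicate 1, 5 members were lower at an unadjusted p under 0.05, against 2.03% of all tested genes, and without WT replicate 2, 12 members, against 2.00%. The direction of the median stayed below 0 in each of these fits.

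**Figure D3:**
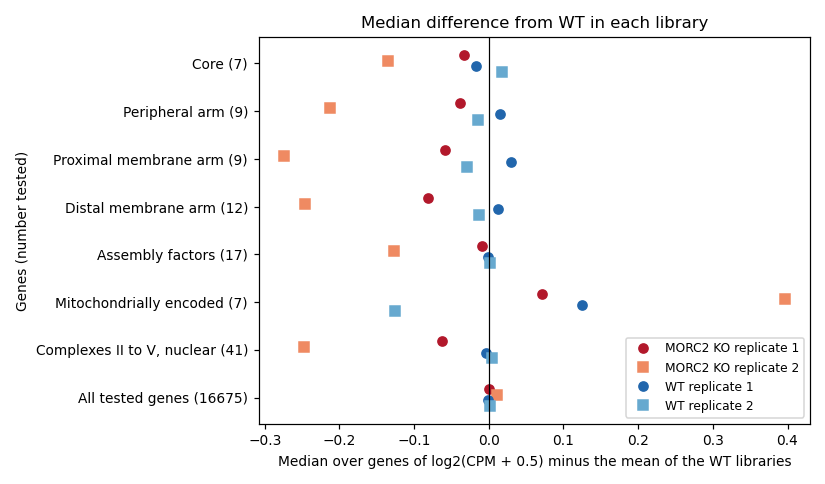
Median over the genes of each set (vertical axis, with the number tested) of log2(CPM + 0.5) in a library minus the mean of the WT libraries (horizontal axis), for each of the 4 libraries. MORC2 KO replicate 2 lies at -0.25 for the distal membrane arm and at 0.40 for the mitochondrially encoded subunits, and MORC2 KO replicate 1 lies nearer to 0.

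In 20 members the 95% interval of the log2 fold change lay wholly below 0 and in 0 members wholly above. In 53 of 54 it stayed within 0.5 of 0 on either side, NDUFAF8 being the exception, so that a larger change was outside the interval for the other members. The standard errors lay between 0.06 and 0.09. NDUFB7 at -0.30 and NDUFB1 at -0.28 were not called, and most members differed by less than these.

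The short genes of the set had the lower values. Across the 54 members the log2 fold change went with log2 exonic length (Pearson's r = 0.65, Spearman's rho = 0.69, across genes, which share the 4 libraries and are not independent replicates), and hardly with abundance (r = -0.01). The 27 members of up to 1422 exonic bases all lay below 0, with a median of -0.17 and 17 at an unadjusted p under 0.05 (63.0%). The 27 longer members had a median of -0.04, with 20 (74.1%) below 0 and 3 (11.1%) lower at an unadjusted p under 0.05. Among all tested genes over 1422 bases the median was 0.01, 47.3% lay below 0 and 5.18% were lower at that p.

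Other short genes of like abundance lay low too. Among all tested genes of up to 1422 exonic bases and with a WT level within the range of the members (645 genes, the short members included), the median was -0.12, 88.7% lay below 0 and 32.7% had an unadjusted p under 0.05 and were lower. Both MORC2 KO libraries lay below both WT libraries in 372 of these genes (57.7%) and in 25 of the 27 short members (92.6%). Over all tested genes of any length and abundance the correlation with log2 exonic length was r = 0.02, and that with mean log2 CPM was r = -0.27. Among the 41 nuclear subunits of complexes II to V it was r = 0.20 with length and r = 0.48 with abundance. With offsets that remove each library's trend on length, the median of the members was -0.09. Of the 54 members, 10 were then lower at an unadjusted p under 0.05, against 8.23% of all tested genes. With GC content removed as well the median was -0.08 and 12 of the 54 were lower, against 8.37%. NDUFAF8 was called under both offsets, at -0.37 and -0.38. Whether the members differ from other short genes was not tested.

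Levels per length differed widely among the members. In WT the highest were NDUFS5 at 297, NDUFB10 at 264 and NDUFB9 at 217 CPM per kb of exon, and the lowest were NDUFAF7 at 2.08, NDUFAF6 at 2.47 and NDUFAF5 at 3.90 CPM per kb, all 3 of them assembly factors with long exons. NDUFAF8 stood between them at 36.3 CPM per kb. The length counts every annotated exon, and a long exon that the cells do not use lowers this level.

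The 7 subunits of complex I that are made in the mitochondrion were not lower. None was called, and the median was 0.24. Above 0 lay 6 of the 7, against 8593 of the 16675 tested genes. At an unadjusted p under 0.05, 5 of the 7 were higher, against 8.14% of all tested genes. ND6 had the highest log2 fold change, at 858 and 1025 CPM in MORC2 KO and 792 and 697 CPM in WT (0.34 ± 0.09 SE, adjusted p = 0.153), and ND3 the lowest, at 323 and 356 against 392 and 297 CPM (-0.02). The WT libraries differed by more here than for the nuclear members, with medians of 0.13 and -0.13 around their mean against 0.01 and -0.01, and in 5 of the 7 genes the groups overlapped. Their summed level was 9211 and 11420 CPM in MORC2 KO and 9373 and 7906 CPM in WT, so MORC2 KO replicate 2 was the highest library where it was the lowest for the nuclear subunits. Reads that map to several places were counted, so copies of mitochondrial DNA in the nucleus could share these reads. The counting also ignored strand, so RNA from the opposite strand of these genes, ND6 included, would be counted with them.

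The nuclear subunits of the other respiratory complexes had values like those of complex I in these libraries. Of 41 genes for complexes II to V, 40 (97.6%) lay below 0, against 48.5% of all tested genes. At an unadjusted p under 0.05, 23 (56.1%) were lower, against 6.17% of all tested genes. None was called, and the median was -0.16, against -0.15 for the 37 nuclear subunits of complex I. ATP5ME, a small subunit of ATP synthase, was the lowest at 37.9 and 33.4 CPM in MORC2 KO against 48.7 and 40.5 CPM in WT (-0.33, adjusted p = 0.153), and UQCRC2 of complex III the highest at 0.00. As for complex I, the medians of these genes were -0.06 in MORC2 KO replicate 1 and -0.25 in MORC2 KO replicate 2. Both sets are compared across the same 4 libraries and are not independent of each other.

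Of 6 further proteins of complex I assembly and import, none was called. At an unadjusted p under 0.05, 3 (50.0%) were lower, against 6.17% of all tested genes. AIFM1, the partner of CHCHD4 in the import of cysteine-pair proteins, was the lowest at 151 and 141 CPM in MORC2 KO against 166 and 170 CPM in WT (-0.20, adjusted p = 0.190), and DMAC1 the highest at 0.07. Of 11 transcriptional regulators of respiratory chain genes, PPARGC1A was too low to test, with 1 to 6 counts per library, and none of the other 10 was called or had an unadjusted p under 0.05. They ranged from -0.17 for GABPB1 to 0.00 for POLRMT.

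Of the 55 members, 48 had a RefSeq window of 300 bases around the gene start, some with several, 62 in all, and 7 had none. The letters GCATGCGC of the NRF1 motif, read on both strands, were in 9 of these windows (14.5%), against 3.05% of 35116 windows of all genes and 3.77% of those of protein-coding genes. The members were NDUFA5, NDUFA6, NDUFA8, NDUFAF4, NDUFAF5, NDUFB4, NDUFS6, NDUFS7 and TMEM186, whose median log2 fold change was -0.13, as was that of all tested members. The letters CCGGAAGT of the ETS motif, to which GABP binds, were in 5 windows (8.06%), against 4.14% of all and 5.42% of protein-coding windows. Neither was found in the windows of NDUFAF8. A match describes the letters of a window, and whether a factor binds there was not measured.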

How the data were processed

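RNA-seq counts of 4 HEK293T cultures were analysed, 2 MORC2 KO and 2 WT, grouped by the labels. The authors used Subread 2.0.6 to align paired-end reads to T2T-CHM13v2.0 and its featureCounts program to count them on strict RefSeq gene models, and deposited whole, unnormalized counts for 28775 genes. Per the file headers the counting took multi-mapping reads, ignored strand and left out pairs that overlap several genes, whereas the methods speak of default options. Counts of overlapping genes, antisense genes and genes with near-identical copies are therefore less certain. The table held 0 columns of other samples.

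Symbols came from RefSeq by Entrez identifier (28763 of 28775 matched). The whole table was fitted in R 4.3.3 with edgeR 4.0.16 as in the study's methods: filterByExpr (16675 genes left), TMM factors from 0.986 to 1.03, the older quasi-likelihood F-test on genotype alone, two-sided, with Benjamini-Hochberg adjusted p under 0.05 as the call. Biological variation between replicates (BCV) was estimated at 5.33%. CPM are TMM-scaled. SEs were derived from the fold change and the F statistic, and intervals are 95%. Per-library differences used log2(CPM + 0.5). Alternatives were DESeq2 1.42.0, the newer edgeR form, other scalings and filters, loess offsets (span 0.3) on abundance, on length, or on GC content and length (GC known for 94.9% of genes), a replicate block, and each library left out, where the lone library of a group was assumed to vary like the others. The scripts were tested on simulated data.

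The members, groups and gene lists were chosen with earlier results of these data known. The members named are all with an unadjusted p under 0.05, all core subunits, NDUFAF5, the highest and lowest of each group, the removed gene, and the 3 highest and 3 lowest per kb in WT, and from other lists the highest and lowest gene. One core subunit was counted with its group and its own values are not reported here. Members outside this rule are given in groups, with single values chosen after they were seen. Same-numbered samples did not deviate together (correlation of deviations -0.12), so the numbers were not taken as pairs. Cysteine pairs were read from the codons of GENCODE 29 coding sequences, and protein sequences were not used here.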

Additional observations from a re-analysis of the deposited data

How the results depend on the processing

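No member was called higher under any of the 15 alternatives. The count called lower was 1 in the main comparison and moved to 4 without the filter on low counts, to 2 with the replicate block, and to 22 with the replicate numbers crossed, a fit chosen after seeing the data because same-numbered samples correlated at -0.12 (903 genes higher and 809 lower in all). With a library left out it ranged from 0 (without WT replicate 1) to 34 (without MORC2 KO replicate 1), and the cause was not tested. The median of the members ranged from -0.21 (without MORC2 KO replicate 1) to -0.051 (without MORC2 KO replicate 2), and NDUFAF8 from -0.51 to -0.31 over the same fits, its call lost at -0.32 (adjusted p = 0.155) without WT replicate 1. Among all tested genes, the count called lower was 182 and higher 463 without the filter, and 42 and 237 with the replicate block. Of 532 further values (single members, groups and the count at an unadjusted p), 453 kept direction and side of the threshold or moved little, 45 passed the threshold, 14 moved and 20 changed sign, all of the last in members between -0.08 and 0.02 in the main comparison. NDUFB5 changed sign with DESeq2 (-0.0027), RLE scaling (-0.0031), length offsets (-0.018), GC and length offsets (-0.011), the replicate block (-0.0025) and the crossed block (-0.0034). NDUFS1 did so with length offsets (-0.0024) and GC and length offsets (-0.0040), NDUFV1 with abundance offsets (0.018) and library size alone (0.012), NDUFAF6 with library size alone (0.033) and NDUFC2 with library size alone (0.015). With a library left out, NDUFB5 ranged from -0.16 to 0.14, NDUFC2 from -0.14 to 0.080, NDUFAF6 from -0.10 to 0.10, NDUFS1 from -0.0043 to 0.040 and NDUFS8 from -0.19 to 0.013. The replicate block changed no other call of a named member than that of NDUFB7. With SEs of 0.06 to 0.09, the spread between the 2 cultures of a group limited the calls more than the depth did.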
